A study of Mus musculus with 9 samples.

Results

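The control pancreas of the series was described from 3 of its 9 RNA-seq libraries, those titled Pdx1:Cre with no other allele. Membership went by that title alone, and the members were chosen with earlier results of these data known. All values below are of these 3 libraries unless another group is named. Each library was made from total RNA of whole pancreas from mouse embryos at e18.5, the embryonic day of the labels and shortly before birth, on a mixed C57BL6 background. The controls carried Cre recombinase under the promoter of Pdx1, a transcription factor of the early pancreatic epithelium, and the titles put this Cre in all 3 groups. Those groups, with 3 libraries each, were titled Pdx1:Cre with Grg3, and Pdx1:Cre with Grg3 and Grg4. Grg3 and Grg4 are Groucho co-repressors, which DNA-bound factors recruit to silence genes, and mouse annotation names their genes Tle3 and Tle4. The libraries are numbered as in the titles. The labels do not say whether a library came from 1 embryo or several, or whether a number marks a shared litter or day, so p-values measure the spread between these samples. Mesenchyme, vessels, nerves and blood are outside the Cre lineage but part of the organ.

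Control replicates 1, 2 and 3 held 51180550, 55030395 and 50120504 gene counts, against 46817453 to 62744499 over all 9 libraries. A further 30.8%, 30.7% and 32.4% of the reads of the controls were in rows that name no gene, mostly reads aligned to several places. Values are given in CPM (counts scaled to a total of 1e+06 gene counts) and as a share of gene counts in percent. Both grow with the length of a transcript. To compare genes with each other, a length-scaled level is given, the reads per kilobase of exon scaled to the same total per library. At these depths 1 CPM rested on 50.1 to 55.0 counts, and the 95% Wilson interval of any list share in 1 library was at most 0.0136 percentage points to either side. Intervals cover counting error only. In whole-organ RNA, fewer cells of a type and less RNA per cell cannot be told apart.

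The pancreas is mostly exocrine tissue. Its acinar cells make digestive enzymes, many as inactive zymogens, and the ducts carry the juice to the gut, while islets of endocrine cells release insulin, glucagon and other hormones into the blood. Late in gestation acinar cells fill with zymogen granules before the first feeding. Transcription of many enzyme genes is driven by the PTF1 complex, in which Ptf1a pairs with Rbpjl and a common basic helix-loop-helix partner. That complex binds a bipartite site, an E-box (CANNTG) followed by a TC box (TTTCCC).

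Of the acinar enzyme promoters, 4 hold such a pair, and 3 of them are shown to let the site be read. All 4 belong to genes among the 30 with the most reads. As 22 of the 36 acinar enzyme genes are among those 30, nothing is read from this. RefSeq annotation on GRCm38.p6 gave a promoter for 29 of the 36 acinar enzyme genes. The 250 bases before the start of transcription were searched on both strands for an E-box and a TC box with 4 bases between them. This spacing was chosen after the promoters had been read. The letters were found in Ctrb1, Cela1, Prss1 and Gm5771, that is in 4 of 29, and in 25 of all 27025 promoters (0.0925%). Each sequence runs 5′ to 3′ along the strand of its gene, and the capitals mark the pair. Ctrb1 (chr8:111691011-111691260, minus strand) encodes a chymotrypsinogen, and the pair lies 205 to 190 bases before its start. Cela1 (chr15:100687921-100688170, minus strand) encodes a pancreatic elastase, with the pair 109 to 94 bases before the start. Prss1 (chr6:41458680-41458929, plus strand) encodes a trypsinogen, with the pair on the opposite strand 106 to 91 bases before the start, so that it reads from right to left.
Ctrb1: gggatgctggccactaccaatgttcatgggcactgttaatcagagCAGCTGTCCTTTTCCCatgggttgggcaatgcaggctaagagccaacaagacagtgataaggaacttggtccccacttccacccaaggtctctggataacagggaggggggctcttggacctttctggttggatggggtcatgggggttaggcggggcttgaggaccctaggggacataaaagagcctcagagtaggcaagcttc
Cela1: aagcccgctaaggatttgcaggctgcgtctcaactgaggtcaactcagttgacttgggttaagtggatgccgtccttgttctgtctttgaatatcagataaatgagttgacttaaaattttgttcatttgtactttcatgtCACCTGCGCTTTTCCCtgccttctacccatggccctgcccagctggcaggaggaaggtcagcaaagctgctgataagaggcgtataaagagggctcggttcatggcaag
Prss1: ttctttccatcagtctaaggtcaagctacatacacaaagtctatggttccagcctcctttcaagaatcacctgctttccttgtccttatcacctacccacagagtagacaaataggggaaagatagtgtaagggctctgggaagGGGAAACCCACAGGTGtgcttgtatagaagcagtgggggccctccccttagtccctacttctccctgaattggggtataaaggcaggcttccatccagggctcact
Gm5771 is a trypsinogen copy near Prss1, and its promoter (chr6:41392106-41392355, plus strand) holds the same 16 letters as that of Prss1 on the opposite strand, 86 to 71 bases before its start. Of the 2 parts of the site alone, the E-box form CACCTG was found in 17 of 29 acinar enzyme promoters and in 19.4% of all promoters. It was not limited to enzyme genes, with 8 of 15 acinar accessory, 7 of 13 duct and 4 of 10 islet hormone promoters. TTTCCC was found in 9 of 29 and in 24.4% of all. Of 18 stroma promoters 1 held CACCTG, and of 30 cell cycle promoters 1 did. A match is a string of letters and not a measured binding site.

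Reads of the control pancreas were concentrated in few genes. The 10 genes with the most reads held 33.4% of all gene counts, the top 30 held 42.8% and the top 100 held 50.9%. A share of 50% of the reads lay in 86 genes and 90% in 4790 genes, of 13718 that reached 1 CPM in all 3 controls. Of these 13718 genes, 12705 were protein coding. On the length-scaled level, 9 genes held 50% of the total and 1911 held 90%. The plot of cumulative shares shows both curves.

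**Figure D1:**
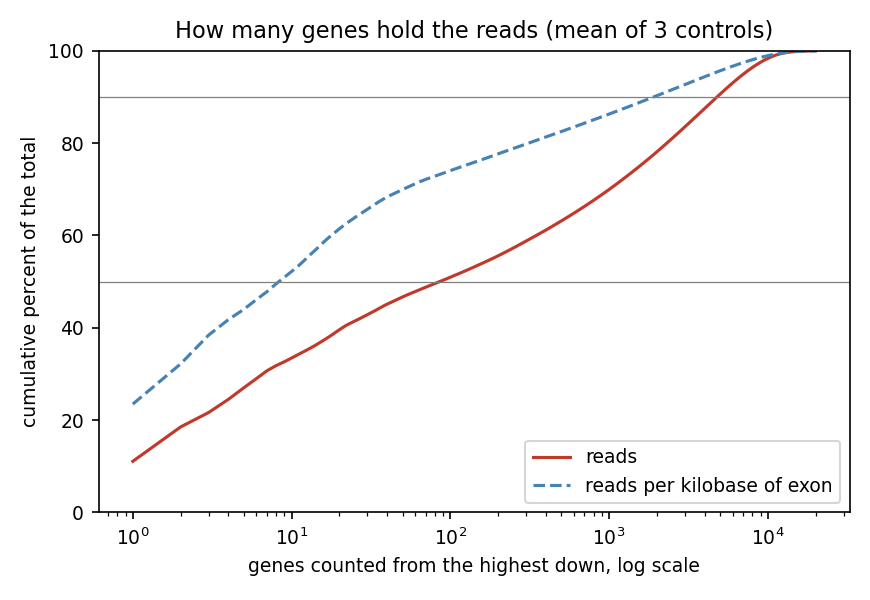
Cumulative percent of the total (vertical axis) held by genes counted from the highest level down (horizontal axis, log scale), as the mean of the 3 control libraries. The solid line is reads, and the dashed line is reads per kilobase of exon. The lines cross 50% at 86 genes and at 9 genes.

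Of the 30 genes with the most reads, 22 were acinar enzyme genes, and 9 of the first 10. With Dmbt1, a large secreted mucosal protein, and Pdia2, a pancreatic protein disulfide isomerase, 24 of 30 were acinar by these lists. The other 6 were the mitochondrial genes mt-Co1, mt-Cytb and mt-Nd5, the translation factor Eef1a1, the fibrillar collagen Col3a1 and CT010467.1, which the annotation types as ribosomal RNA. CT010467.1 shares 73.9% of its exon bases with another annotated gene, so its value is uncertain. On the length-scaled level 21 of the top 30 were acinar enzyme genes, and 24 genes were in both top 30 lists.

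**Figure D2:**
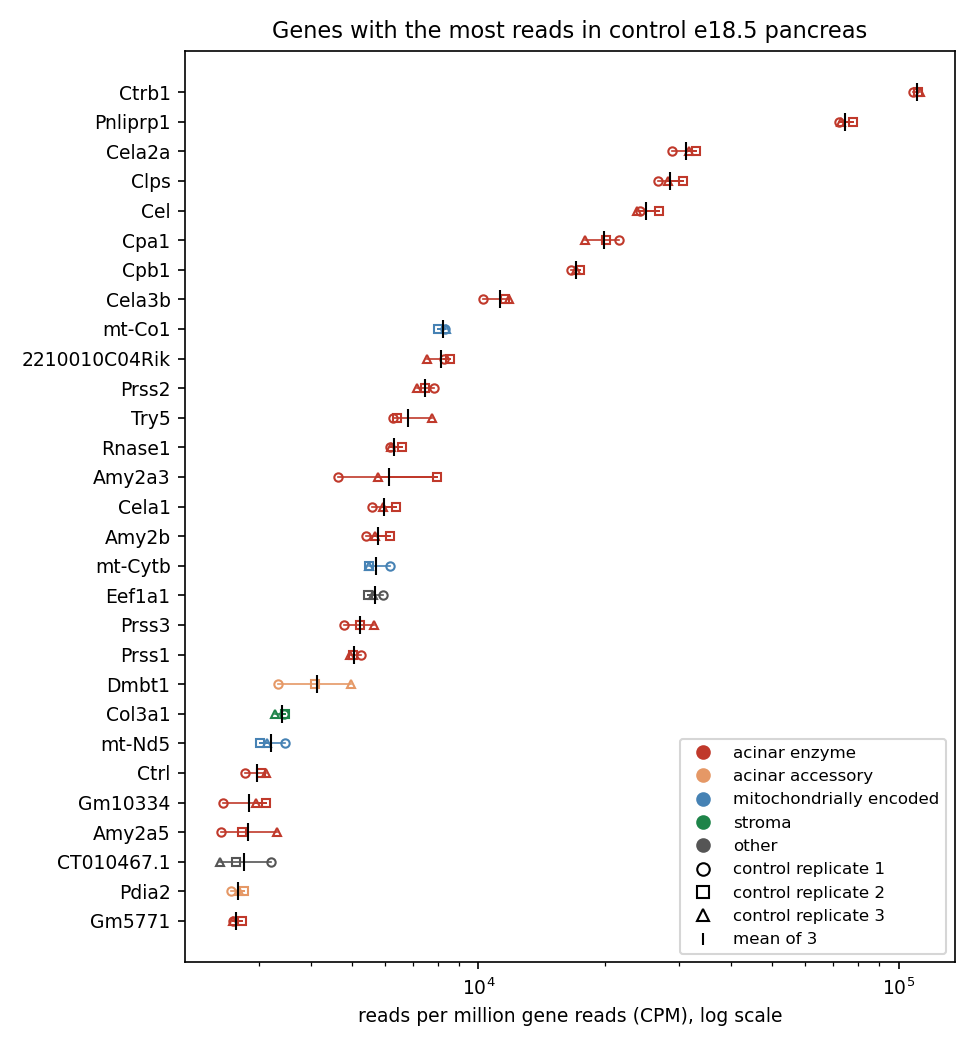
CPM (horizontal axis, log scale) of genes among the 30 with the highest mean CPM in the 3 control libraries, 1 of which is not shown. Circles, squares and triangles are replicates 1, 2 and 3, the black tick is their mean, and colour gives the gene list. The amylase gene Amy2a3 spreads from 4629 to 7963 CPM, while Ctrb1 stays between 108399 and 112316 CPM.

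Acinar enzymes took 38.8%, 41.6% and 40.0% of gene counts in replicates 1, 2 and 3, a mean of 40.1% ± 1.39 (SD, n = 3). On the length-scaled level they took 60.6% ± 1.87 of the total. Of the 36 listed genes 35 reached 1 CPM in all 3 controls and 29 reached 100 CPM. The lipase group, chymotrypsins, elastases, carboxypeptidases, trypsinogens and amylases held 13.0%, 11.4%, 4.84%, 4.31%, 3.96% and 1.84% of all gene counts.

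Among the chymotrypsins, which cut proteins after aromatic residues, Ctrb1 (chromosome 8, 111686519 to 111691010, GRCm38, protein coding) was the gene with the most reads of the organ. It stood at 108399, 111413 and 112316 CPM in replicates 1, 2 and 3, so that the 3 controls lay within a coefficient of variation (CV) of 1.85%. It alone took 11.1% of gene counts and 27.6% of the acinar enzyme reads. Ctrl, a chymotrypsin-like protease, had 2976 ± 178 CPM (SD, n = 3). Ctrc, which activates and degrades trypsinogens, had 5.72, 5.14 and 6.30 CPM, and 21.4% of its exon bases are shared with Cela2a. The length-scaled level of Ctrb1 was 31669 ± 3221 times that of Ctrc (SD, n = 3).

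The lipid-digesting enzymes were led by a lipase-related protein and not by pancreatic lipase itself. Pnliprp1 (chromosome 19, 58728887 to 58744169) stood at 72337, 77902 and 73023 CPM in replicates 1, 2 and 3, the second highest read share of all genes. Colipase, Clps, the small protein that anchors lipase on fat droplets, had 26801, 30658 and 28266 CPM, and on the length-scaled level it ranked above Pnliprp1 (87016 ± 5723 against 62287 ± 2264). Cel, the bile salt-stimulated lipase, had 25006 ± 1644 CPM and Pnliprp2 2213 ± 177 CPM (SD, n = 3). Pnlip, the classical triglyceride lipase, had 1.93, 1.74 and 2.06 CPM, or 96 to 103 counts a library. Its length-scaled level was 1.62 ± 0.148. The pancreatic phospholipase Pla2g1b had 43.5, 47.9 and 37.1 CPM. Pnlip, Ctrc and Pla2g1b are named here after their values were seen, as members of the list far below its leading genes.

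Elastases and carboxypeptidases complete the protein-digesting enzymes other than trypsin. Cela2a had 28898, 32998 and 31732 CPM and Cela3b 10283, 11601 and 11797 CPM, both lowest in replicate 1. Cela1, the gene whose promoter is shown above, had 5594, 6379.7 and 5929 CPM. Cela3a, a close relative of Cela3b, had 36.1, 34.8 and 33.3 CPM, and the length-scaled level of Cela3b was 187 ± 20.5 times that of Cela3a (SD, n = 3). Cela3a, too, was picked after its value was seen, and reads of similar copies can be split. Cpa1, a carboxypeptidase that trims C-terminal residues, had 21602, 20098 and 17947 CPM, highest in replicate 1. Cpb1 had 17032 ± 386 CPM (SD, n = 3). The pancreatic ribonuclease Rnase1 had 6176, 6581 and 6178 CPM.

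The trypsinogen and amylase genes lie in clusters of near-identical copies, so single values are uncertain and the sums are firmer. Reads aligned to several places, 18.0%, 18.9% and 20.7% of all reads in replicates 1, 2 and 3, name no gene and were left out. Those from stretches shared by copies are missing from the sums too, so the sums may be too low. The 11 trypsinogen genes together held 3.89%, 3.99% and 3.99% of gene counts in replicates 1, 2 and 3. The largest read shares among them were those of 2210010C04Rik (8144 ± 527 CPM), Prss2 (7469 ± 342), Try5 (6797 ± 817), Prss3 (5214 ± 419) and Prss1 (5071 ± 169.8; SD, n = 3). The 7 amylase genes, which encode starch-digesting enzymes, held 1.56%, 2.06% and 1.89%. Amy2a3 had 4629, 7963 and 5780.2 CPM and Amy2a1 1586, 1243 and 2182 CPM, so the order of the 3 controls differed between the copies.

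Acinar accessory genes, for granule proteins, protective inhibitors and the secretory response, took 1.52%, 1.67% and 1.71% of gene counts in replicates 1, 2 and 3. Of the 21 found in the files, 17 reached 10 CPM in all 3 controls. Dmbt1 had 3331, 4078 and 4986 CPM and was highest in replicate 3. The granule protein syncollin, Sycn, had 2356, 2539 and 2501 CPM, the granule lectin Zg16 2141 ± 164 CPM and the stress-inducible regulator Nupr1 893 ± 74.5 CPM (SD, n = 3). Cckar, the receptor by which cholecystokinin triggers enzyme release, had 773, 781 and 803 CPM, a CV of 1.97%. The secreted lectin Reg1 had 708, 802 and 713 CPM. Its relatives induced by injury were low, with Reg3b at 7.37, 3.33 and 1.88 CPM, Reg3g at 1.02, 0.963 and 0.379 CPM and Reg3a at 0.567, 0.472 and 0.0998 CPM. Gp2, the main glycoprotein of the adult zymogen granule membrane, had 117, 90.4 and 201 CPM, and the controls spread by more than 2-fold.

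The 7 acinar transcription factors together took 0.105% of gene counts ± 0.0122 (SD, n = 3), all above 10 CPM. Rbpjl, the acinar subunit of PTF1, had 599.7, 440.2 and 432 CPM, highest in replicate 1. Bhlha15 (Mist1), a factor of the mature secretory cell, had 332, 302 and 289 CPM. Ptf1a had 35.0, 34.2 and 32.7 CPM, and 40.4% of its exon bases are shared with the antisense gene Ptf1aos, whose reads cannot be told apart without strand. The nuclear receptor Nr5a2 had 75.4 ± 1.38 CPM and Gata4 73.6 ± 4.51 CPM (SD, n = 3). On the length-scaled level Bhlha15 (164 ± 10.8) and Rbpjl (159 ± 30.0) did not differ beyond their spread, and both lay above Ptf1a (41.9 ± 1.08).

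Protein folding and export genes of the endoplasmic reticulum (ER) took 1.08%, 1.05% and 1.05% of gene counts. All 26 reached 1 CPM in every control with a median CV of 3.31% per gene. The disulfide isomerase P4hb had 2449, 2528 and 2471 CPM and the chaperone Hspa5 1183, 1237 and 1238 CPM. Xbp1, a transcription factor of the secretory and unfolded protein response, had 419, 382 and 419.9 CPM. Ddit3, which marks severe ER stress, had 8.17, 7.61 and 7.20 CPM.

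Islet hormone genes took 0.521%, 0.583% and 0.575% of gene counts in replicates 1, 2 and 3, a mean of 0.559% ± 0.0336 (SD, n = 3). On the length-scaled level they took 0.901% ± 0.0575. Replicate 1 was the lowest for 8 of the 9 hormone genes with a mean of 1 CPM or more. Nothing is read from that count, as no test compares single libraries. The 2 insulin genes of the mouse, Ins2 and Ins1 (chromosome 19, 52264297 to 52265476), had 2329.5, 2493 and 2447 CPM and 1392, 1549 and 1601 CPM. The annotated span of Ins2 (chromosome 7, 142678656 to 142743381) takes in a longer transcript, with 1312 exon bases in all against 1062 for Ins1, so its length-scaled level may be too low. The length-scaled level of Ins2 was 1.35, 1.30 and 1.24 times that of Ins1. Glucagon, Gcg, the alpha cell hormone, had 873, 1079.9 and 1034 CPM, and its length-scaled level was 0.360 ± 0.0273 times that of Ins2 (SD, n = 3).

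The other islet peptides followed on the length-scaled level in the order Sst (609.9 ± 39.2), Pyy (443 ± 22.2), Iapp (379 ± 25.7), Ppy (195 ± 35.6) and Ghrl (30.9 ± 1.92; SD, n = 3). These are somatostatin of delta cells, peptide YY, islet amyloid polypeptide of beta cells, pancreatic polypeptide and ghrelin of epsilon cells. Each value was apart from its neighbours by more than their SDs. In CPM, Sst had 221, 252 and 235, Ppy had 41.9, 60.8 and 54.2 and Ghrl had 16.7, 18.9 and 18.1 in replicates 1, 2 and 3. Gastrin, Gast, had 0.879, 0.618 and 1.02 CPM, and Cck had 0.117, 0.509 and 0.619 CPM. The length-scaled level of Ctrb1 was 68.3 ± 1.39 times that of Ins2 (SD, n = 3).

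Endocrine secretory genes took 0.222% of gene counts ± 0.0141 and endocrine transcription factors 0.0420% ± 0.00126 (SD, n = 3). Of the 24 secretory genes 18 were highest in replicate 3, and 17 were lowest in replicate 1. No test compares single libraries, and nothing is read from these counts. The prohormone-trimming enzyme Cpe had 448, 492 and 482 CPM and the granin Chga 375, 456 and 415 CPM. All 21 transcription factors reached 1 CPM in every control. Nkx6-1, a factor of beta cells and of the ductal trunk, had 57.2, 49.7 and 46.3 CPM and Pdx1 38.6, 37.1 and 36.5 CPM. Mafa, an activator of insulin transcription that rises as beta cells mature, had 26.9, 28.9 and 28.4 CPM. Neurog3, the transient factor that starts endocrine differentiation, had 14.4, 20.0 and 17.5 CPM, so its transcript was present at e18.5 in all 3 controls. Pax4, a factor of the beta cell lineage, had 1.62, 2.29 and 1.96 CPM.

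Duct genes took 0.327%, 0.302% and 0.300% of gene counts in replicates 1, 2 and 3, a mean of 0.310% ± 0.0150 (SD, n = 3), and 0.189% on the length-scaled level. Clu, a secreted chaperone that other cells also make, held 50.1% of the list's reads, at 1657, 1567 and 1429.8 CPM. Spp1, an acidic matrix protein of ducts, had 440.4, 348 and 426 CPM, and the surface mucin Muc1 256, 254 and 228 CPM. Sox9, the transcription factor of duct and progenitor cells, had 99.7, 90.5 and 91.4 CPM and Krt19 85.1, 80.4 and 70.7 CPM. The water channel gene Aqp1 had 119, 114 and 123 CPM. Cftr, the chloride channel, had 1.60, 0.927 and 0.838 CPM, or 42 to 82 counts a library, Sctr, the secretin receptor, had 0.918, 1.73 and 1.26 CPM, and Aqp5 had 0.195, 0.327 and 0.279 CPM. General epithelial genes took 0.154% ± 0.00286 (SD, n = 3), with the adhesion protein Cdh1 at 385 ± 20.9 CPM and the keratin Krt8 at 329, 329 and 332 CPM.

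**Figure D3:**
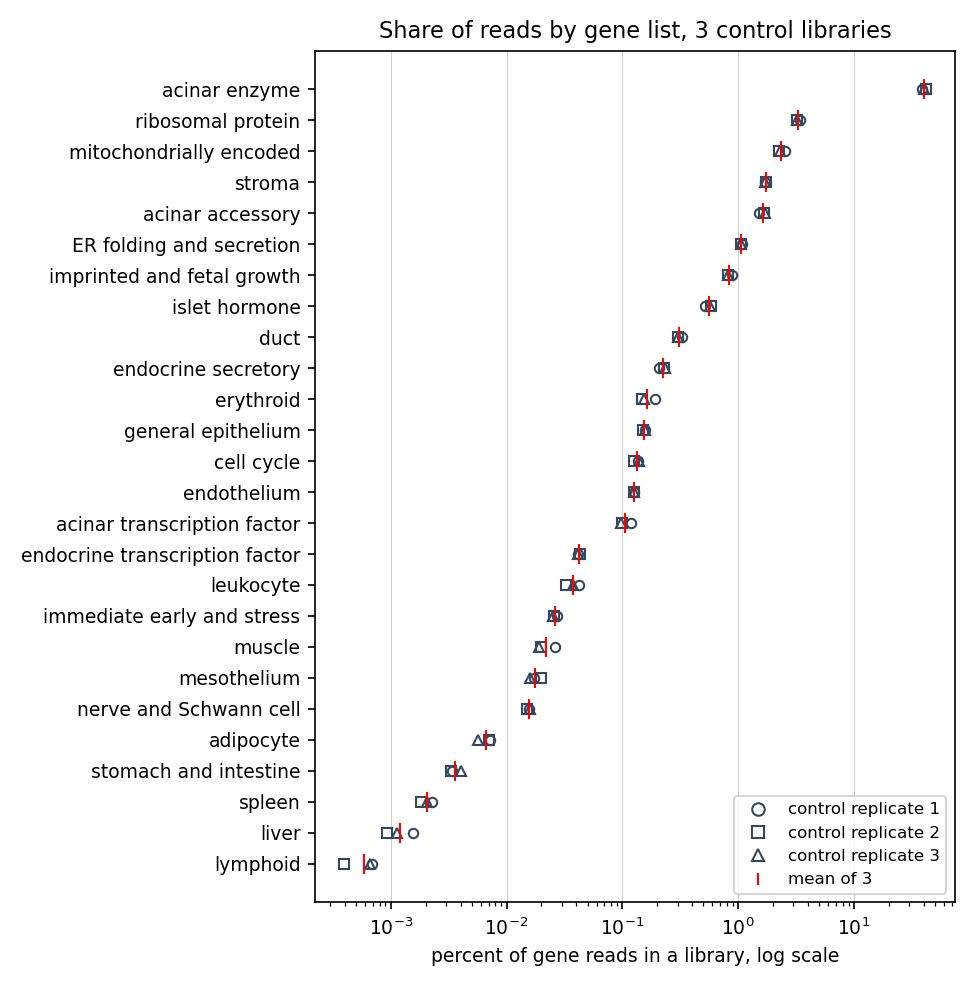
Percent of the gene counts of a library (horizontal axis, log scale) held by each gene list in control replicates 1, 2 and 3 (circle, square, triangle). The red tick is the mean of 3. Acinar enzymes lie near 40%, the stroma list near 1.72%, islet hormones near 0.559% and the liver list near 0.00120%.

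Stroma genes took 1.70%, 1.75% and 1.72% of gene counts in replicates 1, 2 and 3, a mean of 1.72% ± 0.0291 (SD, n = 3). Their transcripts are long, and on the length-scaled level the list took 0.459% ± 0.00192. All 28 reached 1 CPM in every control. Of the fibrillar collagens, Col3a1 had 3445, 3468 and 3287 CPM, Col1a1 2379, 2585 and 2483 CPM and Col1a2 1686, 1767 and 1769 CPM. On the length-scaled level Col1a1 (704 ± 29.0) lay above Col3a1 (644 ± 12.0), the reverse of their order in reads. Col4a1, of basement membranes, had 1331, 1414 and 1538 CPM, and the matricellular protein Sparc 1257, 1078 and 1002 CPM. Not all members were even: Fbn1, fibrillin, had 221, 408 and 463 CPM and Col6a3 226, 368 and 433 CPM, both lowest in replicate 1. Of the factors of gut and splanchnic mesenchyme, Barx1 had 13.0, 10.7 and 7.06 CPM and Nkx3-2 3.22, 2.65 and 3.33 CPM.

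Endothelial genes took 0.127%, 0.125% and 0.125% of gene counts, a CV of 0.764% for the summed share. The junction protein Cdh5 had 233, 221 and 225 CPM and Pecam1 182, 166 and 164 CPM. Leukocyte genes took 0.0425%, 0.0326% and 0.0372%, led by the macrophage complement gene C1qa at 138, 111 and 123 CPM, and 14 of 17 were highest in replicate 1. In each exon length class under 8000 bases the median gene was also higher in replicate 1, by 0.05 to 0.12 on the log2 scale. That holds for genes at 10 CPM or more, and nothing is read from the leukocyte count. Smooth muscle and other muscle genes took 0.0264%, 0.0199% and 0.0191%. In that list Acta2 had 85.2, 59.5 and 52.0 CPM, and the sarcomeric Myh3, Tnnt2 and Actc1 were each far lower, at means of 0.173, 0.266 and 0.166 CPM. Tagln had 0.449, 0.254 and 0.259 CPM, but 67.9% of its exon bases are shared with a gene on the opposite strand, so its low value is uncertain. Nerve and Schwann cell genes took 0.0155% ± 0.000442, led by Mbp, and mesothelial genes 0.0176% ± 0.00210 (SD, n = 3), led by Upk3b.

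Blood was visible as adult-type haemoglobin. Erythroid genes took 0.192%, 0.147% and 0.152% of gene counts, highest in replicate 1, and the 4 adult globin genes held 0.159% ± 0.0249 (SD, n = 3). Hbb-bs had 1060.0, 739 and 773 CPM and Hba-a1 397, 466 and 434 CPM, and the similar copies share reads. The embryonic globins Hba-x, Hbb-y and Hbb-bh1 had 90 counts in all over the 3 libraries. Some genes of the red cell precursor stood apart from the globins and were highest in replicate 3. Among these, Slc4a1, the anion exchanger of the red cell membrane, had 7.87, 3.34 and 35.5 CPM, the erythroid factor Klf1 0.274, 0.218 and 2.85 CPM and Hemgn 0.0195, 0.0545 and 3.67 CPM.

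Neighbouring organs left little RNA in the controls. The 15 liver genes together took 0.00154%, 0.000930% and 0.00113% of gene counts, with albumin, Alb, at 5.12, 2.05 and 2.25 CPM and Afp at 2.40, 0.818 and 1.26 CPM. Of the 17 stomach and intestine genes 11 had a mean under 0.1 CPM, Gkn1 and Gkn2 had no count, and Vil1, a brush border protein, held 90.2% of the list at 30.3, 29.6 and 37.2 CPM. The intestinal factor Cdx2 had 1, 4 and 1 counts. The 3 spleen factors took 0.00205% ± 0.000232 (SD, n = 3), with Tlx1 at 3.34, 3.03 and 5.07 CPM. Adipocyte genes took 0.00664% ± 0.000810, of which the fatty acid carrier Fabp4, which capillaries also make, was 96.7%. Adipoq and Plin1 had 1 count each over the 3 libraries, and Lep had none. Lymphoid genes took 0.000582% ± 0.000162. A count of 0 in a library allows a level of up to 0.0545 to 0.0599 CPM, the level of 3 counts.

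Cell cycle genes took 0.137%, 0.127% and 0.140% of gene counts in replicates 1, 2 and 3, a mean of 0.134% ± 0.00683 (SD, n = 3), and 0.0566% ± 0.00342 on the length-scaled level. All 38 reached 1 CPM in every control, and 33 reached 10 CPM. Mki67, the marker of cycling cells, had 128, 159 and 208 CPM and was highest in replicate 3. Top2a, a topoisomerase of S phase to mitosis, had 113, 112 and 131 CPM. Of the replication genes, Mcm6 had 73.2, 68.6 and 73.8 CPM and Pcna 67.1, 64.4 and 65.2 CPM, and the 6 genes Mcm2 to Mcm7 summed to 0.0333%, 0.0288% and 0.0313%. Of the mitotic kinases, Cdk1 had 33.9, 28.0 and 31.4 CPM and Aurka 13.2, 11.4 and 12.4 CPM. Replicate 1 was highest for 31 of the 38, while Mki67, Top2a and Cenpf were highest in replicate 3. As for the leukocyte genes, the median gene of each length class under 8000 bases was also higher in replicate 1. Of other lists, replicate 1 was highest for 19 of 26 ER genes and for 1 of 24 endocrine secretory genes. Nothing is therefore read from the count of 31.

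Genes of fetal growth, most of them imprinted (expressed from 1 parental copy), took 0.884%, 0.812% and 0.825% of gene counts. Scaled by exon length they took 0.344% ± 0.0255 (SD, n = 3), below the 0.901% of the islet hormones. The non-coding RNA H19 (chromosome 7, 142575529 to 142578143) had 2629.8, 2418 and 1998 CPM. Igf2, the growth factor gene next to it, had 216, 153 and 138 CPM, but 64.5% of its exon bases are shared with another annotated gene, so that its level is uncertain. Dlk1, a Notch-like ligand of fetal tissues, had 1124, 944 and 929 CPM, Meg3 891, 649 and 841 CPM and Peg3 673, 770.5 and 904 CPM. Mitochondrially encoded genes took 2.35% ± 0.151 and ribosomal protein genes 3.28% ± 0.112 (SD, n = 3). Immediate early and heat shock genes took 0.0259% ± 0.000928, with Jun at 114, 116 and 114 CPM and Fos at 8.58, 5.89 and 6.28 CPM. All lists together left 46.8% of gene counts on no list.

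The genes named in the titles of the other groups were present in the controls. Tle3 had 59.1, 58.7 and 57.7 CPM and Tle4 7.35, 6.76 and 6.96 CPM. Of their relatives, Aes, a short Groucho protein, had 661, 629.8 and 589 CPM, Tle1 45.3, 44.5 and 41.2 CPM and Tle2 46.3, 36.0 and 40.7 CPM. Of the forkhead factors, Foxa2 had 40.3, 38.6 and 34.0 CPM and Foxa3 31.8, 27.8 and 30.5 CPM, while Foxa1 had 2, 1 and 1 counts. Foxa1 stood at 14.8, 12.2 and 12.3 CPM in the libraries labelled Grg3 and at 13.0, 12.7 and 14.1 CPM in those labelled Grg3Grg4. Its near absence is thus a trait of the control libraries and not of every pancreas library of the series, and its cause was not tested.

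The 3 controls were alike for most genes but differed by more than counting noise. Pearson's r of log2(CPM + 1) between 2 controls was 0.987 to 0.991 across genes, which are not independent replicates. Between 2 controls the chi-square of the counts, divided by its degrees of freedom, was 17.1 to 27.8, so none was a repeat of another. Over the 8903 genes with a mean of 10 CPM or more, the median CV was 6.99%. It was 14.2% for genes from 1 to 10 CPM, 7.20% from 10 to 100, 5.37% from 100 to 1000 and 6.66% for the 62 genes above. Counting alone would give medians of 7.07%, 2.65%, 1.10% and 0.278%, so deeper counts did not lower the spread of the highest genes further. The common biological coefficient of variation of edgeR was 13.3% in the controls, against 21.1% and 25.4% in the libraries labelled Grg3 and Grg3Grg4, a difference that was not tested.

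**Figure D4:**
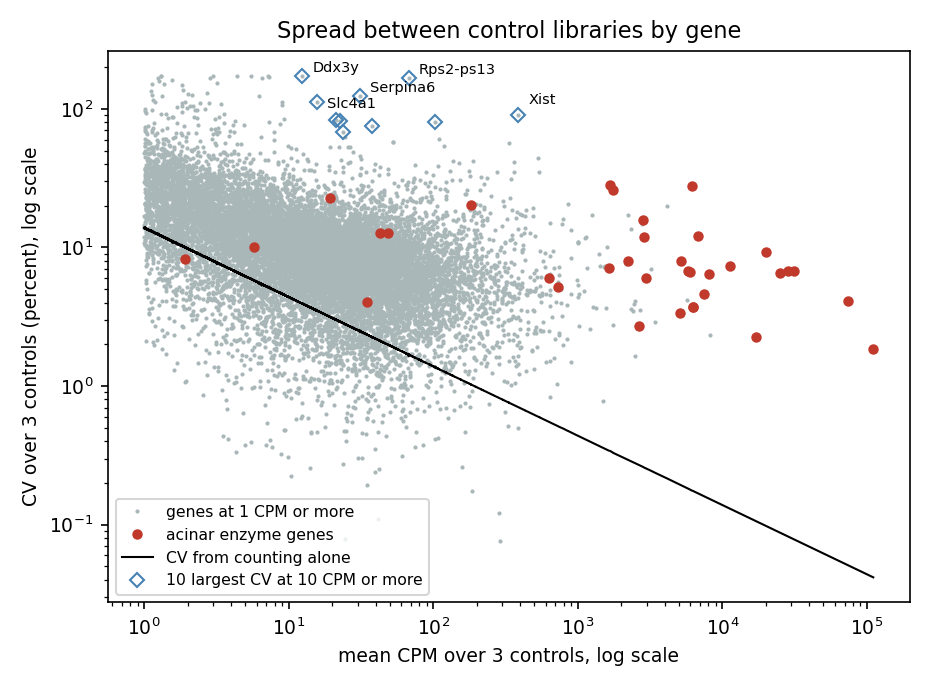
CV over the 3 control libraries in percent (vertical axis, log scale) against mean CPM (horizontal axis, log scale) for each gene at 1 CPM or more. Red points are acinar enzyme genes, blue diamonds the 10 largest CVs at 10 CPM or more, and the black line is the CV that counting alone gives. Most acinar enzyme genes lie far above that line, with Ctrb1 at 1.85%.

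Large differences between controls were few. Of the 8903 genes, 61 (0.685%) differed 2-fold or more between the highest and the lowest control. Replicate 1 was the one apart for 23, replicate 2 for 11 and replicate 3 for 27 of them. Pseudogenes were 6 of the 61 (9.84%), against 1.43% of all genes at this level. The 10 largest CVs included Xist and the Y-linked Ddx3y. Replicate 1 had Ddx3y at 37.3 CPM and Xist at 0.117, while replicates 2 and 3 had no Ddx3y count and Xist at 473 and 685 CPM, the pattern of a male in replicate 1 and of females in the others. A difference of replicate 1 from the other two and a difference between the sexes cannot be told apart.

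Other genes of the 10 also set 1 library apart. The pseudogene Rps2-ps13 (chromosome X, 52898588 to 52899469) had 2.58, 197 and 3.13 CPM, high in replicate 2 alone. Gabbr1, a GABA receptor subunit (chromosome 17, 37045966 to 37075067), had 21.1, 70.4 and 21.8 CPM, again highest in replicate 2. Replicate 2 was low for the non-coding Gm42031 (136, 8.29 and 165 CPM) and the pseudogene Gm6166 (34.4, 1.24 and 32.1 CPM). Serpina6, the plasma carrier of corticosteroids, had 12.4, 5.36 and 75.7 CPM, highest in replicate 3. Gm8797 (0.782, 32.9 and 30.3 CPM) and the retinol receptor gene Stra6 (6.27, 26.8 and 38.0 CPM) were low in replicate 1 alone. Reads of pseudogenes can come from near-identical parents, so their values are uncertain.

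At the other end, some genes above 100 CPM varied little over the controls. Rab3d, a small GTPase of the zymogen granule membrane, had 290.1, 290.4 and 291 CPM, a CV of 0.0756%. The ribosomal protein gene Rpl36 had 285, 285 and 285 CPM, the endothelial receptor gene Eng 185, 184 and 184 CPM and Rpn2, a subunit of the enzyme that adds N-glycans in the ER, 389, 386 and 389 CPM. In the spread plot such genes lie below the line for counting alone, which is at 0.813% for Rab3d. They were picked as the smallest CVs with n = 3. A CV below counting noise does not measure how steady a gene is.

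A difference between the controls followed transcript length, a check made after the values were seen. Among 8861 genes at 10 CPM or more with a known exon length, those under 1000 bases were lower in replicate 3 than in the other controls, by a median of -0.10 on the log2 scale. Those of 8000 bases or more were higher there, with a median of 0.11. Replicate 1 went the other way, with medians of 0.09 and -0.03, and replicate 2 had medians of 0.0018 and -0.07. Spearman's rho between a gene's exon length and its difference from the other controls was -0.34, -0.08 and 0.44 for replicates 1, 2 and 3, as a description across genes of the same libraries. The long transcripts Fbn1, Col6a3 and Mki67 named above followed this direction, and its part in their spread was not tested.

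Comparing the controls with the other groups shows which of their leading genes hold their place. Tle3 was measured at 59.1, 58.7 and 57.7 CPM in the controls, 152, 194 and 133 in the libraries labelled Grg3 and 139, 140.5 and 153 in those labelled Grg3Grg4, log2 changes of 1.24 (SE 0.09) and 1.05 (SE 0.09) with edgeR adjusted p of 0.00027 and 0.000557. It was thus higher in the libraries whose titles name Grg3, and the groups are called by their labels. Tle4 also lay above its controls (7.35, 6.76 and 6.96 CPM) in both groups. It had 10.1, 15.1 and 12.7 CPM in Grg3 and 11.3, 17.2 and 9.04 in Grg3Grg4, which overlapped with each other. Against control, 268 of 19166 genes passed edgeR's quasi-likelihood test in the libraries labelled Grg3 (1.4%), 135 of them higher (0.704%) and 133 lower (0.694%), and 410 in those labelled Grg3Grg4 (2.14%), 238 higher (1.24%) and 172 lower (0.897%). Both comparisons share the 3 control libraries. The counts rest on few libraries. Without control replicate 2 or 3 they were 44 and 32 for Grg3 and 55 and 50 for Grg3Grg4, and without control replicate 1 they were 232 and 120. Without Grg3 replicate 1 the count was 75, and without Grg3Grg4 replicate 1 or 2 it was 164 or 160. The groups also differed in sex make-up. By Ddx3y at 1 CPM or more, 1 of 3 controls, 1 of 3 libraries labelled Grg3 and 3 of 3 labelled Grg3Grg4 had the male pattern. With sex as a term in the fit, chosen after seeing the data, 169 genes passed in Grg3 and 30 in Grg3Grg4 (15 higher, 15 lower).

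Of the 30 genes with the most reads in the controls, 6 were called lower and 0 higher in each comparison, while 0.694% and 0.897% of all genes tested were called lower. The 30 were chosen by their control level, which these comparisons also use, so nothing is read from that count. The 6 were the same in both: the trypsinogens Prss1, Prss3, Gm10334 and Gm5771, the chymotrypsin-like Ctrl and the ribonuclease Rnase1. Prss1 had 5261, 5018 and 4935 CPM in control replicates 1 to 3, 893, 718 and 1202 in the libraries labelled Grg3 and 893, 757 and 563 in those labelled Grg3Grg4. Its log2 changes were -2.59 (SE 0.27) and -3.03 (SE 0.27), with edgeR adjusted p of 0.0027 and 0.000807. Ctrl had 2777, 3030.4 and 3120.0 CPM in the controls, 488, 563 and 743 in Grg3 and 513, 526 and 604 in Grg3Grg4, changes of -2.49 (SE 0.21) and -2.69 (SE 0.22) (edgeR adjusted p = 0.000813 and 0.000469). For both genes no control overlapped with any other library. Rnase1 changed by -1.06 (SE 0.21) and -1.05 (SE 0.21) (edgeR adjusted p = 0.0431 and 0.0358), a call that ended in 7 of 13 and in 8 of 13 alternative settings, among them the sex term and leaving out any 1 control, with adjusted p up to 0.165 and 0.177. The other 5 stayed called in all 13 in both comparisons.

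The leading pair of the control ranking did not pass. Ctrb1 had 108399, 111413 and 112316 CPM in the controls, 107992, 88722 and 124134 in Grg3 and 92043, 85606 and 99092 in Grg3Grg4, and remained first in each group. Its log2 changes were -0.22 (SE 0.26) and -0.51 (SE 0.26), with edgeR adjusted p of 0.699 and 0.313. In Grg3Grg4 it was called by the DESeq2 Wald test alone of 13 alternatives (adjusted p = 0.0449, range 0.0449 to 0.598). Pnliprp1 remained second in each, at 61723, 45477 and 78087 CPM in Grg3 and 68749.5, 63128 and 64389 in Grg3Grg4. Its changes were -0.43 (SE 0.28) and -0.43 (SE 0.28) (edgeR adjusted p = 0.445 and 0.432). Of the control top 30, 25 were also in the top 30 of the libraries labelled Grg3, and 25 in that of Grg3Grg4.

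By list, acinar enzymes took 33.1%, 25.6% and 38.6% of gene counts in the libraries labelled Grg3 and 31.8%, 30.0% and 32.3% in those labelled Grg3Grg4, all below the lowest control at 38.8%. The sums were not tested. The lowest, 25.6%, was in Grg3 replicate 2, where stroma genes took 2.95%, the highest of the 9 libraries, and its part in the acinar share was not tested. Of the 36 genes, 11 were called lower and 0 higher in each comparison. Of all genes tested, 0.694% and 0.897% were called lower and 0.704% and 1.24% higher, for this list and those below. The 36 had median log2 changes of -0.56 and -0.68, against 0.02 and 0.01 over all genes tested. As 22 of the 36 are among the 30 genes with the most control reads, the count of 11 is a description. Leaving out 1 library gave 5 to 13 lower in Grg3, with 5 without control replicate 2, control replicate 3 or Grg3 replicate 1 and 7 without control replicate 1. It gave 5 to 9 in Grg3Grg4, with 5 without control replicate 2 and 6 without control replicate 1 or 3 or Grg3Grg4 replicate 1 or 2. With the sex term 7 and 5 were lower, with the DESeq2 Wald test 16 and 19, and with only the 6 libraries compared 9 and 19. None of the 36 was called higher in any of these settings. Islet hormones took 0.581%, 0.580% and 0.324% in Grg3, overlapping with the controls, and 0.220%, 0.207% and 0.411% in Grg3Grg4. Of the 11 genes, 1 was called higher and 0 lower in Grg3, and 1 higher and 2 lower in Grg3Grg4. The 1 higher was gastrin, Gast, at 0.879, 0.618 and 1.02 CPM in the controls, 21.3, 23.1 and 16.1 in Grg3 and 11.5, 8.46 and 7.97 in Grg3Grg4, with no overlap. Its log2 changes were 4.39 (SE 0.21) and 3.23 (SE 0.21) (edgeR adjusted p = 1.03e-05 and 0.000149), and it stayed called in all 14 alternatives in both comparisons. The 2 lower were Npy, for neuropeptide Y, and Ins2, and without any 1 control, without Grg3Grg4 replicate 1 or 2 or with the sex term 0 of the 11 were lower, against 5 with the DESeq2 Wald test. Npy had 0.439, 1.34 and 1.11 CPM in Grg3Grg4 against 5.22, 4.45 and 4.71 in the controls, a log2 change of -2.56 (SE 0.52) (edgeR adjusted p = 0.0369, up to 0.166 over 14 alternatives). Ins2 had 777, 727 and 1485 CPM in Grg3Grg4, below its controls, a log2 change of -1.52 (SE 0.30) (edgeR adjusted p = 0.0353). That call ended in 7 of 14 alternatives, with the replicate block, with the sex term and without any 1 control or Grg3Grg4 replicate 1 or 2, where the adjusted p reached 0.155. Gcg had 513, 431 and 968 CPM there, overlapping with its controls (0.115 as edgeR adjusted p). Of the 22 duct genes 0 passed edgeR's test in Grg3 and 1 in Grg3Grg4, with 4 and 8 at an unadjusted p under 0.05 and 3 and 3 called by DESeq2. The 1 was Aqp1, lower in Grg3Grg4 with a log2 change of -0.66 (SE 0.13) (edgeR adjusted p = 0.0336), a call that ended without any 1 of the 6 libraries and with the sex term (adjusted p up to 0.174). Of 28 stroma genes 0 passed edgeR's test in either comparison, with 4 and 5 at an unadjusted p under 0.05 and 2 and 0 called by DESeq2. Of 38 cell cycle genes 0 passed edgeR's test, with 9 and 12 at an unadjusted p under 0.05 and 2 and 1 called by DESeq2. Of all 19166 genes tested, 3661 and 3866 had an unadjusted p under 0.05 in edgeR's test. The DESeq2 Wald test called 1313 and 1454 genes in all. Nothing is read from the duct, stroma and cell cycle counts. The share of the cell cycle genes was 0.142% to 0.201% in Grg3 and 0.167% to 0.201% in Grg3Grg4, against 0.127% to 0.140% in the controls. With acinar enzyme reads left out of the total it was 0.217% to 0.271%, 0.247% to 0.295% and 0.217% to 0.233%. These shares were not tested.

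At the median gene with 1 CPM or more in the controls, CPM was higher by 0.20 on the log2 scale in the libraries labelled Grg3 and by 0.23 in those labelled Grg3Grg4. The tests above were scaled by TMM, a trimmed mean of log ratios, which is meant to remove such a shift. The liver list, at 0.000930% to 0.00154% of gene counts in the controls, stood at 0.0105% to 0.156% in Grg3 and at 0.0604% to 0.182% in Grg3Grg4. Of its 14 tested members 9 were called higher in each, while 0.704% and 1.24% of all genes tested were called higher. Without control replicate 2 or 3 the count of liver members was 0 in both comparisons. Without control replicate 1 it was 2 in both, and without Grg3 replicate 1 it was 4 in Grg3. With the sex term it was 9 in Grg3 and 0 in Grg3Grg4. Of the 15 liver genes 4 had a control mean under 0.1 CPM, and such genes could pass the filter only with the other groups. Others, among them Alb and Afp, were high enough to pass on the controls alone. The count is a description. The part of this RNA in the lower acinar values was not tested.

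**Figure D5:**
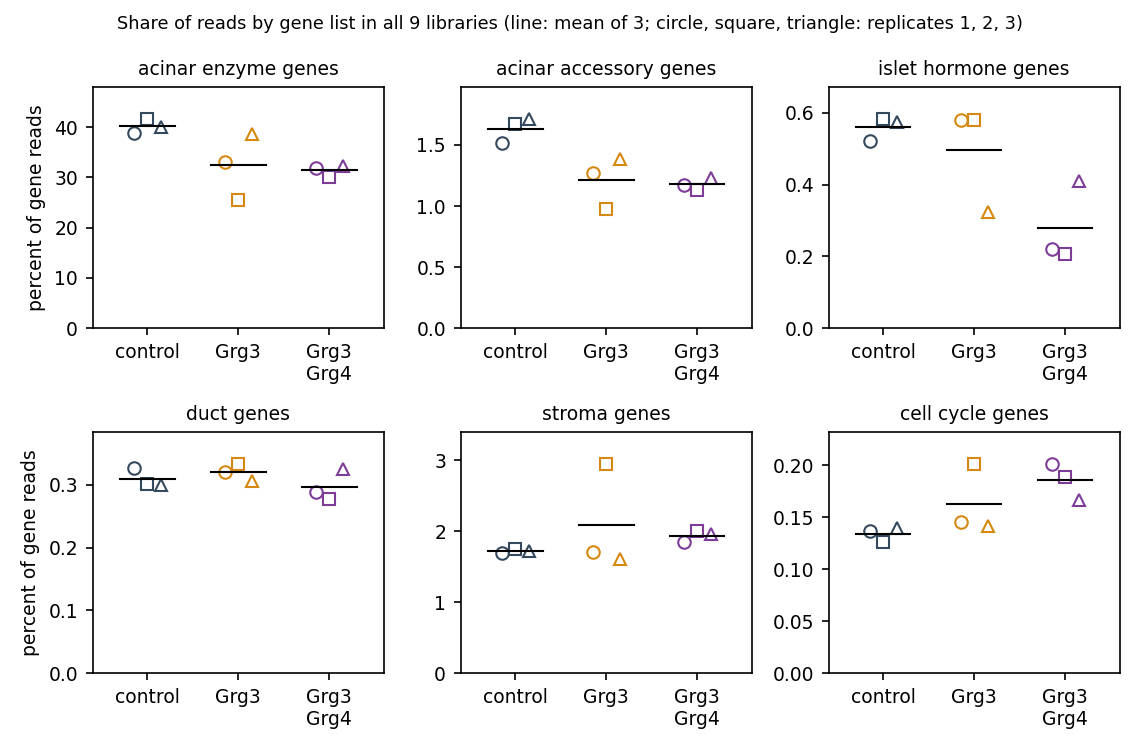
Percent of gene counts (vertical axes, from 0) held by 6 gene lists in each of the 9 libraries, by group. Circle, square and triangle are replicates 1, 2 and 3, and the line is the mean of 3. Acinar enzyme genes lie at 38.8% to 41.6% in the controls and at 25.6% to 38.6% and 30.0% to 32.3% in the other groups.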

How the data were processed

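RNA-seq was deposited as 9 tables of raw read counts per gene, 3 per group. Per the submitters' processing notes, the tools were HISAT2, HTSeq, bedtools, Trim Galore, FastQC and DESeq2, with mm10 (GRCm38). Tool versions, annotation and strand setting were not given in the sources used here. Deposited counts were read for 55453 genes. The 5 rows naming no gene (30.7% to 32.4% of reads in the controls) were left out. CPM used the sum of gene counts. Exon lengths, gene types and coordinates came from GENCODE M21 on GRCm38, in which 54404 symbols matched 1 gene, and promoters from RefSeq.

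Groups were compared with the quasi-likelihood test of edgeR 4.0.16 (R 4.3.3), 2-sided, on all 9 libraries in 1 fit, after TMM scaling and filterByExpr (minimum count 10, minimum total 15). Benjamini-Hochberg adjustment covered all genes tested, with calls under 0.05. The script was tested on simulated data. Alternatives were DESeq2 1.42.0, its size factors, other filters, a replicate block, a sex term (added after seeing the data), fewer libraries and other totals. Python 3.11.15 with pandas 2.3.3 and scipy 1.17.1 did the rest. The members and gene lists were chosen with earlier results of these data known. The text names the 30 genes with the highest control CPM, up to 8 per list by CPM with those that define a cell type or are under 0.1 CPM, and the 10 largest and 10 smallest CVs (at 10 and 100 CPM or more). Other genes named are list members chosen for their known roles after their values were seen. Some listed genes are not reported here.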

Additional observations from a re-analysis of the deposited data

How the results depend on the processing

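List shares moved with the total they are set against. With TMM-scaled totals, acinar enzymes, accessory genes, islet hormones, duct, stroma and cell cycle genes took 44.5%, 1.81%, 0.620%, 0.343%, 1.91% and 0.149%. Per kilobase of exon they took 60.6%, 2.16%, 0.901%, 0.189%, 0.459% and 0.0566%. With rows naming no gene in the total they took 27.6%, 1.12%, 0.384%, 0.213%, 1.18% and 0.0923%. With acinar enzyme reads left out of the total, an alternative chosen after seeing the data, the other 5 took 2.73%, 0.936%, 0.517%, 2.88% and 0.224%. Without mitochondrial genes the stroma share was 1.77%. Per kilobase, 9 genes held 50% and 1911 held 90%.

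Expressed genes ranged from 12511 to 14919 and the median CV from 4.90% to 6.99% over their alternatives. Called genes for Grg3 and Grg3Grg4 numbered 586 and 930 with no filter beyond 1 count, and 1313 and 1454 with the DESeq2 Wald test. With only the 6 libraries compared, Grg3Grg4 had 750. Leaving out 1 library gave 32 to 289 for Grg3 and 50 to 320 for Grg3Grg4. The cause was not tested. With a sex term, chosen after seeing the data, they numbered 169 and 30. With the replicate block they numbered 167 and 254. The labels state no pairing, and none was detected, as same-numbered libraries correlated at -0.086 to 0.094 in their deviations. Depth limits only low genes, as 3 counts equal 0.0545 to 0.0599 CPM.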

Other observations

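Most control reads came from protein-coding genes (97.4% ± 0.0508, SD, n = 3). Long intergenic non-coding RNAs took 0.576%, led by H19, and processed pseudogenes 0.471%. Unprocessed pseudogenes took 0.613%, led by Amy2b, which this annotation types so although it lies among the amylase copies. Genes typed as miRNA took 0.0888%, 0.0507% and 0.0409% in replicates 1, 2 and 3, led by Gm23935.

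A few genes of blood-forming tissue and spleen were highest in control replicate 3, and were picked after their values were seen. Epor, the erythropoietin receptor, had 0.430, 0.491 and 1.66 CPM in replicates 1, 2 and 3. The spleen factor Tlx1 had 3.34, 3.03 and 5.07 CPM and Nkx2-5 0.332, 0.182 and 1.30 CPM. The B cell gene Ms4a1 had 0, 0.0182 and 0.239 CPM. The haemoglobin gene Hbb-bs, at 1060.0, 739 and 773 CPM, was highest in replicate 1 instead. The spleen and lymphoid lists as wholes did not follow these genes. The spleen list took 0.00227%, 0.00181% and 0.00207% of gene counts and the lymphoid list 0.000690%, 0.000396% and 0.000660%, both highest in replicate 1, as were 14 of 17 leukocyte genes. The median gene of each exon length class under 8000 bases was also higher in replicate 1, as given above. No test compares single libraries.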
